A study of Mus musculus with 16 samples.

Results

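Csf2ra, Mug-ps1, Psen2 and Sec14l2 are 4 mouse genes that read as strongly enriched in liver when kidney and liver were compared on cDNA arrays. Their members are the probes annotated with exactly 1 of these symbols, which gave 5 probes (2 for Psen2, 1 for each of the others) out of 20419 on the array. A further probe carries the symbols Mug2 and Mug-ps1 together. It is no member and is given only beside Mug-ps1. The genes were chosen by their kidney over liver values on these same arrays, so that contrast is described for them without a test.

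Kidney and liver came from C3HeB/FeJ animals of an inbred line, wildtype males aged 105 ± 5 days, of which the left kidney and the dorsal lobe of the liver were used. On 7 kidney arrays the kidney RNA of a single mouse was hybridised with a pool of 5 livers (3 arrays for mouse 1, 3 for mouse 2 and 1 for mouse 3). On 9 liver arrays the liver RNA of the same mice was hybridised with a pool of 5 kidneys (3 arrays each). Repeat arrays hold the same RNA and were averaged, so n is 3 mice per organ, and the pools give no estimate of spread. Between 15480 and 19432 probes had a value on an array, and the number of arrays limits the precision.

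All values are log2 ratios of kidney over liver, so a negative value means more signal from liver RNA. Neither dye nor numerator is stated. In the titles the single animal precedes the pool, and read in that order albumin would be a kidney transcript, so the sign was taken from markers and opposes the titles. Turned this way, all 17 probes of a hepatocyte list (16 genes, such as Alb and Ahsg) were higher in liver, with a median of -7.17. All 12 probes of a proximal tubule list (11 genes, such as Kap and Miox) were higher in kidney, with a median of 5.04. These lists set the direction and are no independent evidence of it. On the 6 arrays of mouse 2 the median ratio over all probes lay between -1.49 and -1.19, against at most 0.00267 in size on the other 10 arrays. At a limma adjusted p under 0.05, 2358 of 18670 probes were called (12.6%), of which 967 had more signal from kidney and 1391 more from liver. Centring every array on its median gave 3328 for kidney and 2117 for liver, and quantile normalization 1980 and 11629. The mouse number as replicate block gave 15425 calls on kidney over liver and 966 on single sample over pool. On kidney over liver this block takes differences between mice out of the SE, so its calls do not measure spread between animals.

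As background, the 4 genes have little in common. Csf2ra encodes the ligand-binding alpha chain of the receptor for GM-CSF, a growth factor of myeloid cells; it pairs with the common beta chain Csf2rb and signals through Jak2 and Stat5. Psen2 encodes presenilin 2, a catalytic subunit of gamma-secretase, the membrane protease that cuts App and Notch receptors. Sec14l2 encodes a lipid-binding protein with a CRAL-TRIO domain, also called tocopherol-associated protein or supernatant protein factor, which binds vitamin E and acts in squalene metabolism. Mug-ps1 is a transcribed pseudogene of the murinoglobulins, proteinase inhibitors of rodent plasma that belong to the alpha-2-macroglobulin family and are made in liver.

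The 250 bases before the annotated start of the 3 protein-coding genes are shown so that they can be set beside those of hepatocyte genes (RefSeq, GRCm38.p6; all 3 on the minus strand, written 5′ to 3′ along the gene). Capitals mark matches on either strand to the GC box GGGCGG, the CCAAT box or the cAMP response element TGACGTCA. The regions are chr19:61228419-61228668 for Csf2ra, chr1:180256301-180256550 for the first of 2 starts listed for Psen2, and chr11:4118730-4118979 for Sec14l2. The table of sequences used here holds no entry for Mug-ps1.
Csf2ra: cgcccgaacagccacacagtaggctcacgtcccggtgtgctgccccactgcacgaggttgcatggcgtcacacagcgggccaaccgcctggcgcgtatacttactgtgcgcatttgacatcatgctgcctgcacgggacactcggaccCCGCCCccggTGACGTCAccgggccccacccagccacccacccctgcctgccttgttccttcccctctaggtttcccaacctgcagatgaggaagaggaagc
Psen2: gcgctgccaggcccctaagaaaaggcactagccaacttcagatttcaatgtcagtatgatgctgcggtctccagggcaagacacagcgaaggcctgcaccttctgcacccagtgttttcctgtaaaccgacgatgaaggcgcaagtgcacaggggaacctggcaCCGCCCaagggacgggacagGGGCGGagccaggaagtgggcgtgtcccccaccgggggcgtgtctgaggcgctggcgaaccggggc
Sec14l2: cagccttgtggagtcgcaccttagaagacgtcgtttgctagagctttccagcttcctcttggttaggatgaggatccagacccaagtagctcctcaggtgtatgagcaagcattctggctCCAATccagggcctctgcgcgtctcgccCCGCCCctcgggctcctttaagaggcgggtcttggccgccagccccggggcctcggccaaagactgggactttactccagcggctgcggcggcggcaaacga

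The windows hold 17 CpG in Csf2ra, 15 in Psen2 and 17 in Sec14l2, against a median of 6 over 32851 windows of the same length. As many or fewer are found in 78.3% of all windows for Csf2ra and Sec14l2 and in 74.6% for Psen2. Of the hepatocyte list 11 genes have an entry, and their 12 windows hold a median of 3.5 CpG, with a range of 2 to 28. The second start listed for Psen2 has 7 CpG and none of the motifs. GGGCGG occurs once in Csf2ra and Sec14l2, in Psen2 it occurs 2 times, and 32.7% of all windows hold it. CCAAT occurs once in Sec14l2, and 33.8% of windows hold it. TGACGTCA occurs once in Csf2ra, beginning at position -92 from the start, and in 1.55% of windows. The letters TATAAA (12.4% of windows), GTTAAT (an HNF1 half-site; 6.43%), CAAAGTCC (HNF4; 1.20%), TGTTTAC (FOXA; 3.17%) and TTGCNNAA (C/EBP; 9.56%) are in none of the 3 windows. Of the 11 hepatocyte list genes with an entry, 3 hold TATAAA, 3 GTTAAT, 0 CAAAGTCC, 1 TGTTTAC and 6 TTGCNNAA. GGGCGG is in 1 of these 11, CCAAT in 4 and TGACGTCA in 0. The motifs were chosen with the sequences in view, none of those found in the 3 windows overlap, and matches are descriptions of the letters only.

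Csf2ra, the receptor chain of myeloid cells, had a ratio near the median of the hepatocyte list, which was -7.17. On kidney arrays its log2 ratio ran from -8.33 to -6.26 with a median of -7.70, and on liver arrays from -8.21 to -6.06 with a median of -7.20. The averages of mice 1, 2 and 3 were -6.86, -8.02 and -7.07 on kidney arrays, and -7.68, -6.67 and -7.15 on liver arrays. The value was below 0 on all 16 arrays, and the ranges of the 2 kinds of array overlapped over most of their span. The estimate over both kinds was -7.24 (SE 0.25, n = 3 mice per organ), or 151-fold more signal from liver. Counted from the most liver-enriched probe of each array, Csf2ra stood between place 3 and place 48. In whole-organ RNA, more cells of a type and more RNA per cell cannot be told apart. A single probe read Csf2ra. Probe sequences were not examined for any of these genes, so whether a probe reads only the gene it is named for was not tested.

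The tested partners of this receptor lay much nearer 0. Of 15 genes of GM-CSF receptor signalling, 7 were tested with 8 probes, and none of the 8 probes passed in either direction, against 7.45% of all probes higher in liver and 5.18% higher in kidney (limma, Benjamini-Hochberg). With the mouse number as replicate block on kidney over liver, 6 of the 8 passed toward liver, as did 67.8% of all probes, and on sample over pool none did, against 2.89%. Their median was -0.54, against -0.53 over all probes. The common beta chain Csf2rb was at 0.23 (SE 0.34) and its paralog Csf2rb2 at -0.44 (SE 0.38). Il3ra, the alpha chain of the interleukin-3 receptor, was at -0.89 (SE 0.32), and Jak2, the kinase bound to the beta chain, at -0.77 (SE 0.40). The transcription factors Stat5a and Stat5b were at -0.60 and -0.89. The 8 probes spanned -0.89 to 0.23, against -7.24 for the alpha chain. Some of their values recurred exactly on the same array, as ratios of small whole-number intensities do. On the arrays of mice 1 and 3 this share ran from 11.1% for Csf2rb to 83.3% for Csf2rb2. It was 0.0% for Csf2ra, and the median over all probes was 50.0%. A ratio far from the rest seldom recurs, and how far dim spots set these values was not tested.

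Markers of macrophages, the cells in which GM-CSF receptors are best known, leaned to liver by less. Of 11 macrophage and Kupffer cell probes (9 genes), 3 passed, each toward liver (7.45% of all probes): Tyrobp, a signalling adaptor (-2.92, SE 0.22, 7.59-fold), Clec4f, a lectin of Kupffer cells (-1.91, SE 0.28, 3.76-fold), and C1qa, a complement C1q chain (-1.13, SE 0.21, 2.18-fold). The list had a median of -0.94 and a range of -2.92 to 0.31. Of 9 probes for neutrophil and other myeloid genes none passed, with a median of -0.81 (12.6% of all probes passed in either direction). With the replicate block on kidney over liver, these 9 and 9 of the 11 macrophage probes passed toward liver, where 67.8% of all probes did, so the counts are no result about myeloid genes. The call of C1qa was lost in 5 of 13 alternatives, among them those without mouse 1 and without mouse 3, and that of Clec4f in 2 of 14, one of them without mouse 1. Both medians stood below that of all probes. Without mouse 2 they were nearer 0, at -0.41 for 8 macrophage probes and -0.24 for 5 other myeloid probes, against -0.01 over all probes. The share of exactly recurring values ran from 55.6% for Ltf to 100% for Ngp among the 9 other myeloid probes. Among the macrophage probes it ran from 0.0% for Tyrobp to 87.5% for a probe of Msr1. The part of these cells in the Csf2ra value was not tested.

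The probes most like Csf2ra over all 16 arrays, by the root mean square difference of the log2 ratios among 9125 named probes, were those of Vtn (vitronectin; 0.453), Bhmt (betaine-homocysteine methyltransferase; 0.487), F2 (prothrombin; 0.568), Serpinc1 (antithrombin; 0.632) and Mat1a (methionine adenosyltransferase; 0.688). The 5 genes are known as hepatocyte products, and their estimates ran from -7.22 to -6.82. Their Pearson correlations with Csf2ra over the arrays ran from 0.502 for F2 to 0.743 for Bhmt. Here and for the other genes, the distance is set largely by the level of the ratios, which also chose the genes. Such neighbours are a description and no evidence of the cells behind a value. In the RefSeq order no measured gene follows Csf2ra on its chromosome, and 10 genes stand between it and the nearest measured one. The 3 nearest were Sfxn4 (-0.76), Dennd10 (0.68) and Eif3a (0.06), and none of them passed. No other probe shares a sequence record with the Csf2ra probe in the annotation.

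Mug-ps1 had the largest liver excess of the 4. On kidney arrays its log2 ratio ran from -8.45 to -7.20 with a median of -7.93, and on liver arrays from -7.98 to -6.69 with a median of -7.49. The averages of mice 1, 2 and 3 were -7.59, -8.23 and -7.61 on kidney arrays, and -7.53, -7.90 and -7.10 on liver arrays. Mouse 2 was lowest on both kinds, and all 16 values were below -6. The estimate was -7.66 (SE 0.22, n = 3 mice per organ), 202-fold toward liver and at place 11 of all probes tested. Its nearest probes were those of Apoc1 (an apolipoprotein; root mean square difference 0.419), Ahsg (fetuin-A; 0.471), Car3 (carbonic anhydrase 3; 0.573), Mup3 (a major urinary protein; 0.582) and Hpx (hemopexin; 0.585), with estimates between -8.01 and -7.60. Their Pearson correlations with Mug-ps1 over the arrays ran from -0.0526 for Hpx to 0.85 for Ahsg.

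The second probe annotated to this pseudogene, as Mug2 or Mug-ps1, gave another value. It shares 2 of its 3 sequence records with the Mug-ps1 probe. Its log2 ratio ran from -1.86 to -0.51 on kidney arrays with a median of -1.20, and from -2.46 to -0.30 on liver arrays with a median of -0.81. The estimate was -1.08 (SE 0.27), 2.11-fold toward liver, against the 202-fold of the Mug-ps1 probe. The 2 probes did not overlap on any array. A cDNA probe can bind transcripts of near-identical family members, and murinoglobulins are such a family, so either probe may read more than the pseudogene; this was not tested. Mug1 and Mug2 had no probe with a single symbol and were not analysed here.

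Of 12 genes of the alpha-2-macroglobulin family and its receptor, 3 were tested with 4 probes, and 2 probes were higher in liver (limma, Benjamini-Hochberg; 7.45% of all probes). Pzp, a plasma proteinase inhibitor of the alpha-2-macroglobulin family, was at -4.49 (SE 0.21, adjusted p 4.57e-06). Hc, complement component C5, was at -5.44 (SE 0.29, adjusted p 1.00e-05). Lrpap1, the chaperone of the receptor Lrp1, was at 0.64 and -0.43 on its 2 probes, and neither passed. Of the 6 nearest measured genes around Mug-ps1, Slc6a13, a GABA transporter, was higher in liver (-1.17, SE 0.22, adjusted p 0.0108) and 1700063H04Rik was higher in kidney (1.30, SE 0.20, adjusted p 0.00387). The other 4, Iqsec3, Tuba8, M6pr and Phc1, lay between -0.66 and -0.16 and did not pass. Each of these 2 calls was lost in 5 of 14 alternatives, those without mouse 1 and without mouse 3 included.

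**Figure D1:**
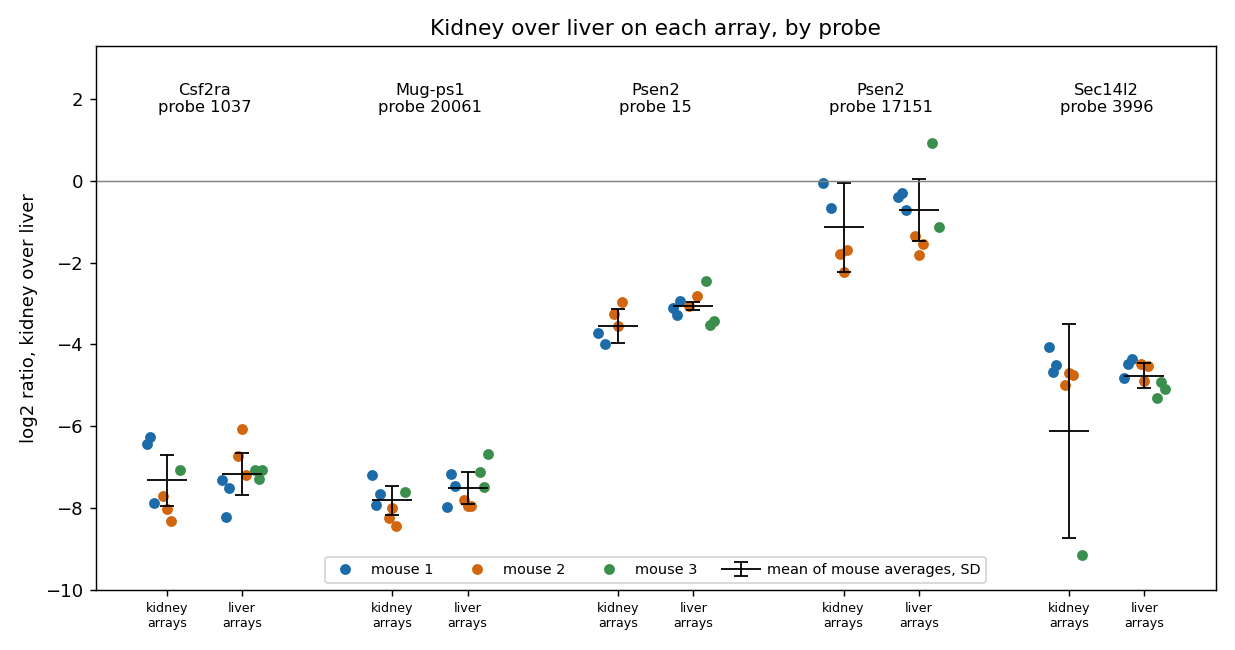
Log2 ratio of kidney over liver (vertical axis) on each array for the 5 probes of Csf2ra, Mug-ps1, Psen2 and Sec14l2, with kidney arrays left of liver arrays. Points are arrays coloured by mouse, and black bars give the mean ± SD of the mouse averages (3 mice, 2 for Psen2 on kidney arrays); Sec14l2 has a single point at -9.14, while the other 15 lie between -5.30 and -4.06.

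Psen2 was read by 2 probes that disagreed in size. Probe 15 had values on 13 arrays. They were -3.73 and -3.98 for mouse 1 and -3.25, -3.55 and -2.97 for mouse 2 on 5 kidney arrays, and ran from -3.53 to -2.45 with a median of -3.09 on 8 liver arrays. All 13 were below -2, and 4 of the 5 kidney array values lay below the median of the liver arrays. The estimate was -3.31 (SE 0.25), 9.90-fold toward liver, from 2 mice on kidney arrays and 3 on liver arrays, since the only kidney array of mouse 3 gave no value.

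Probe 17151 gave a weak and unsteady value. On kidney arrays it was -0.06 and -0.66 for mouse 1 and -1.79, -2.24 and -1.69 for mouse 2. On liver arrays it ran from -1.81 to 0.92 with a median of -0.92, and mouse 3 supplied both 0.92 and -1.12. Mouse 2 was lowest on both kinds of array. The estimate was -0.92 (SE 0.35), 1.89-fold toward liver, and it became -0.36 when arrays were centred, while probe 15 then stood at -2.74. On the arrays of mice 1 and 3, 5 of the 7 values of probe 17151 recurred exactly elsewhere on the same array, as ratios of small whole-number intensities do. For probe 15, Csf2ra, Mug-ps1 and Sec14l2 none did, and the median over all probes was 50.0%. The share is read from the ratios themselves, and a ratio far from the rest seldom recurs at any brightness. The 2 Psen2 probes share no sequence record, and the name "strongly liver-enriched" describes only probe 15.

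Substrates and sheddases of the presenilin pathway did not follow probe 15. Of 22 genes of gamma-secretase and its substrates, 12 were tested with 14 probes, none was higher in liver, and App, the amyloid precursor protein, was higher in kidney (2.72, SE 0.21, 6.61-fold, adjusted p 5.95e-05, limma, Benjamini-Hochberg; 5.18% of all probes). With the replicate block on kidney over liver, 4 of the 14 probes passed toward kidney and 5 toward liver, against 14.9% and 67.8% of all probes, and on sample over pool App alone passed, toward kidney, against 2.29% of all probes. The list's median was -0.12, above the -0.53 of all probes. Its lowest value was that of the Notch ligand Jag1 (2.01-fold toward liver), which did not pass. Notch1, Notch2 and Notch3 were at -0.73, -0.13 and 0.72, and the proteases Adam10, Adam17 and Bace1 at -0.15, -0.60 and -0.04. The gamma-secretase subunits Ncstn, Aph1a, Aph1b, Aph1c and Psenen were not analysed here. The 6 nearest measured genes, Coq8a, Ahctf1, Sccpdh, Itpkb, Stum and Parp1, were read by 8 probes between -0.92 and -0.14, and none passed.

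Over the 13 arrays where probe 15 had a value, the most similar of 6395 named probes were those of Sult1a1 (a sulfotransferase; root mean square difference 0.339), Cdo1 (cysteine dioxygenase; 0.386), Nr1d1 (a nuclear receptor of the circadian clock; 0.414), Haus1 (a subunit of the augmin complex; 0.418) and Hsd17b2 (a hydroxysteroid dehydrogenase; 0.431). Their estimates lay between -3.34 and -3.04. Probe 17151 was closest to Josd1 (0.188), Sort1 (0.318), Ehd4 (0.327), Slc30a2 (0.336) and Gnai2 (0.349), with estimates between -0.90 and -0.60. The 2 sets have no gene in common, which the different levels of the 2 probes all but fixed in advance, so it is no further evidence about them. The required number of shared arrays, 14 for the other genes, was lowered to 13 for Psen2 after its missing values were seen.

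**Figure D2:**
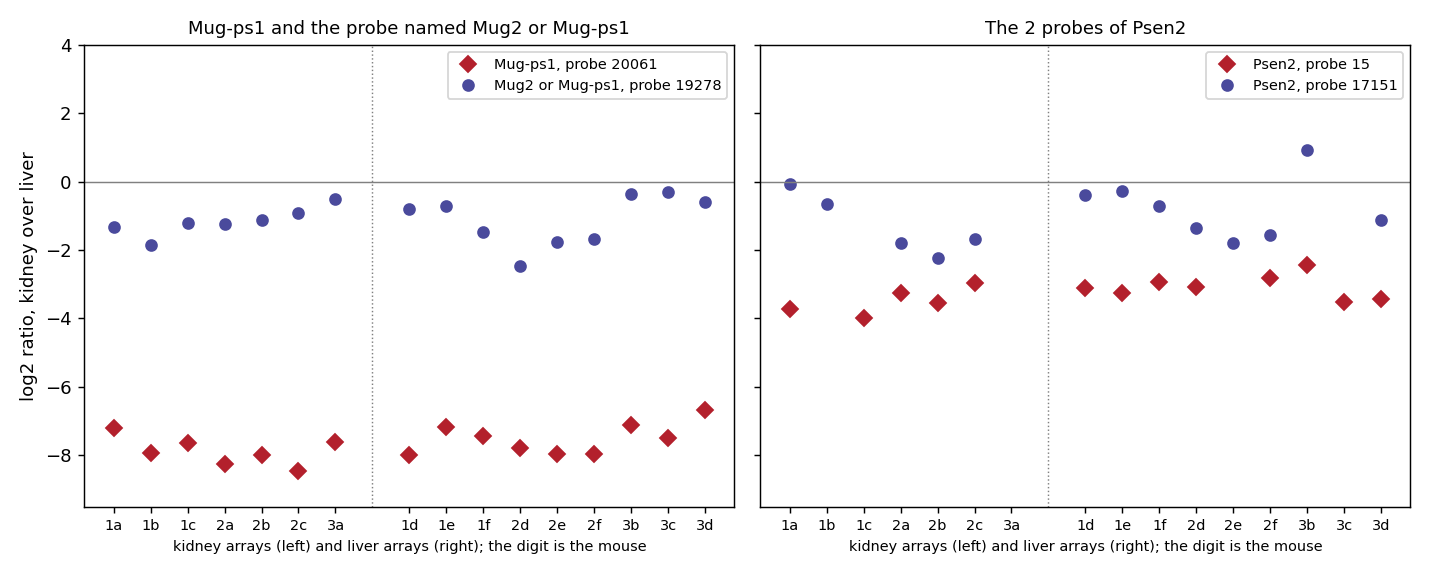
Log2 ratio of kidney over liver on the 7 kidney arrays (left of the dotted line) and 9 liver arrays for pairs of probes annotated to the same gene, Mug-ps1 in the left panel and Psen2 in the right. The Mug-ps1 probe lies between -8.45 and -6.69 while the probe named Mug2 or Mug-ps1 lies between -2.46 and -0.30; Psen2 probe 15 lies below probe 17151 on every array where both have a value.

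Sec14l2 showed a steady liver excess with a single far value. On 7 kidney arrays its log2 ratio ran from -9.14 to -4.06 with a median of -4.71, and on 9 liver arrays from -5.30 to -4.35 with a median of -4.83. The averages of mice 1, 2 and 3 were -4.42, -4.81 and -9.14 on kidney arrays, and -4.55, -4.64 and -5.10 on liver arrays. The value of -9.14 came from the only kidney array of mouse 3, where it was the lowest of all 15480 probes, whereas on the other 15 arrays Sec14l2 stood between place 63 and place 103. On that array 10 of 11482 probes lay more than 3 from the median of the other kidney arrays, against 3 to 13 on the other 6. The estimate was -5.44 (SE 0.57, 43.5-fold), and -4.69 without that array.

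Between hybridisations of the same RNA, Sec14l2 varied little, with an SD of 0.235 over 10 degrees of freedom, against a median of 0.269 over all probes. The SD was 0.325 for Mug-ps1, 0.352 and 0.575 for Psen2 probes 15 and 17151, and 0.540 for Csf2ra. Csf2ra and Psen2 probe 17151 stood at percentiles 94.2 and 95.4 of this SD. The array of mouse 3 with the value of -9.14 has no repeat, so it does not enter the SD of Sec14l2.

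Sec14l4 and Ttpa, relatives of Sec14l2, were also higher in liver. Of 18 genes for CRAL-TRIO proteins and for vitamin E or squalene handling, 11 were tested with 1 probe each, of which 2 were higher in liver and 1 in kidney (limma, Benjamini-Hochberg; 7.45% and 5.18% of all probes), with a median of -0.37. Sec14l4, a close paralog, had averages of -4.31, -4.06 and -4.42 for mice 1, 2 and 3 on kidney arrays and -3.66, -3.63 and -3.49 on liver arrays. Its estimate was -3.93 (SE 0.20, 15.2-fold, adjusted p 8.08e-06). Ttpa, the alpha-tocopherol transfer protein that loads vitamin E for export from hepatocytes, was at -2.72 (SE 0.26, 6.60-fold, adjusted p 0.000249). Scarb1, a lipoprotein receptor that also takes up vitamin E, was higher in kidney (0.91, SE 0.20, 1.88-fold, adjusted p 0.0229), a call lost in 6 of 14 alternatives, those without mouse 1, without mouse 3 and without the kidney array of mouse 3 included, while those of Sec14l4 and Ttpa held in all 14. With the replicate block on kidney over liver, 7 of the 11 probes passed toward liver and 2 toward kidney, near the 67.8% and 14.9% of all probes. Sec14l1 and Sec14l3 were at 0.27 and -0.37 and did not pass. Fdft1, which makes squalene, was at -0.23 and did not pass.

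Sec14l2 lies in a cluster with 2 of these paralogs. In the RefSeq order the 3 nearest measured genes on one side were Mtfp1 (-0.69), Sec14l3 (-0.37) and Sec14l4 (-3.93), and on the other Rnf215 (0.15), Sf3a1 (-0.89) and Tbc1d10a (0.19). Only Sec14l4 among these 6 passed. The probes most like Sec14l2 over 16 arrays were those of Arg1 (arginase 1; root mean square difference 0.793), Hc (0.797), Cpn1 (carboxypeptidase N; 0.928), Slc38a4 (an amino acid transporter; 1.01) and Orm1 (orosomucoid; 1.05). These distances exceeded those of the other 3 genes and include the array with -9.14. Hc averaged -7.05 on that array, against -5.35 and -5.06 for mice 1 and 2 on kidney arrays. Arg1 was at -7.13 there, against -5.06 and -4.82. Both were picked by a distance that includes that array, which favours probes also low there, so they are no independent evidence about it. Values of Cpn1, Slc38a4 and Orm1 there are not given here.

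**Figure D3:**
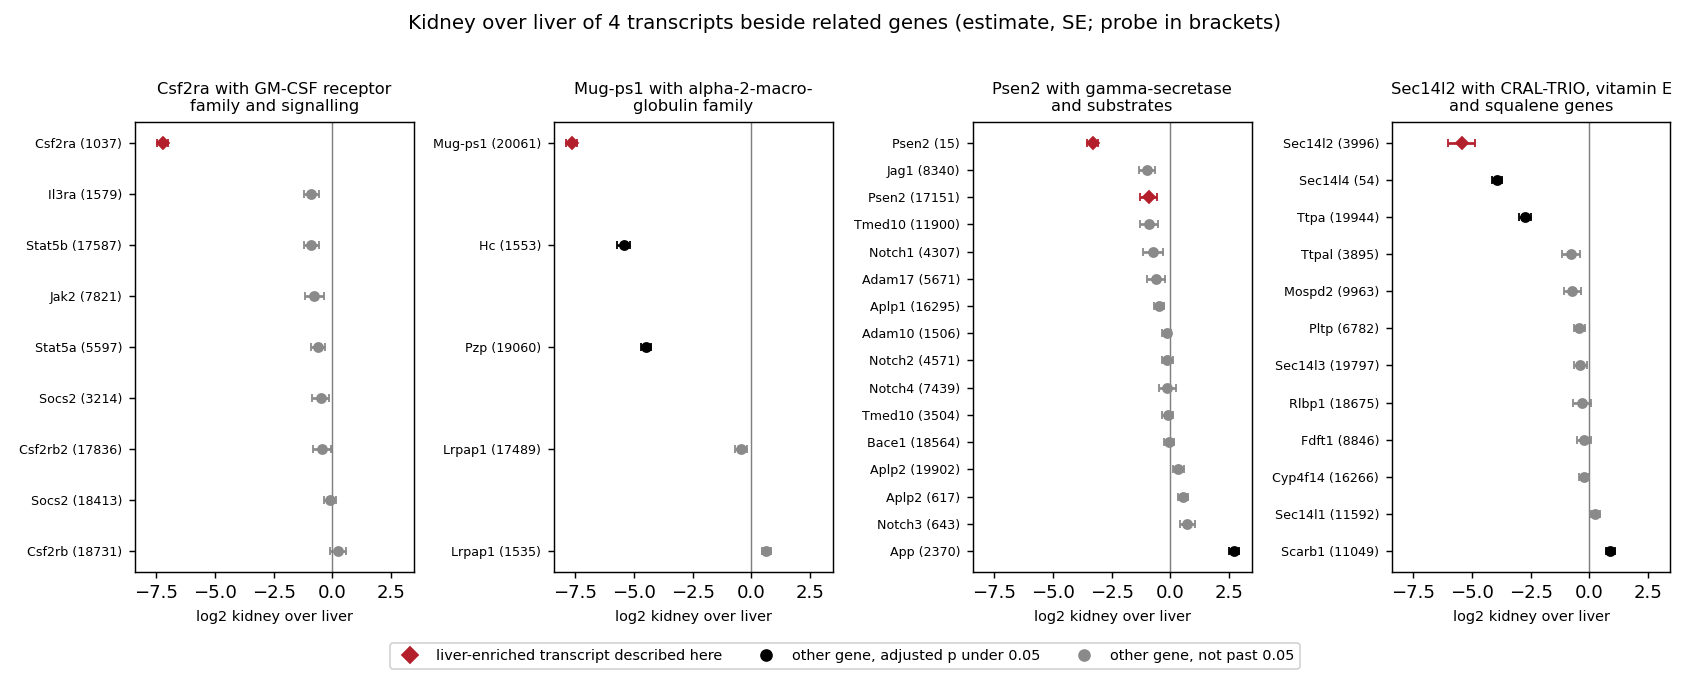
Estimated log2 ratio of kidney over liver with its SE (horizontal axis) for the 5 probes of Csf2ra, Mug-ps1, Psen2 and Sec14l2 (diamonds) and for the tested probes of related genes, black where the adjusted p was under 0.05. Csf2ra stands at -7.24 while its signalling partners lie between -0.89 and 0.23; Sec14l4 and Ttpa lie on the liver side with Sec14l2, and App lies at 2.72.

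Because the rule averaged both kinds of array, the difference between them could be tested. It compares a single kidney against pooled livers with a single liver against pooled kidneys. The kidney array value minus the liver array value was -0.15 for Csf2ra (SE 0.51), -0.30 for Mug-ps1 (SE 0.45), -0.49 and -0.42 for Psen2 probes 15 and 17151 (SE 0.49 and 0.70), and -1.36 for Sec14l2 (SE 1.13). None passed, and over all probes the test called 0 of 18670 (0.0%; limma, Benjamini-Hochberg), with 46 at an unadjusted p under 0.05. Without the only kidney array of mouse 3 the difference for Sec14l2 was 0.15. This fit takes the mice as independent between kinds of array. With the mouse number as replicate block the SE lay between 0.18 for Mug-ps1 and 0.65 for Sec14l2, 18 probes passed, and none of the 5 did (limma adjusted p 0.603 to 0.913). Neither fit shows that both kinds read alike.

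Differences between mice were the other measure that did not choose the genes. They were tested against the spread of repeat hybridisations, so p-values here measure technical spread. On liver arrays 86.0% of 18449 probes passed (limma's moderated F, Benjamini-Hochberg), and so did 4 of the 5 probes: Csf2ra (adjusted p 0.0293), Mug-ps1 (0.0334), Sec14l2 (0.0374) and Psen2 probe 17151 (0.0288), while Psen2 probe 15 did not (0.799). With every array centred, probe 15 passed (limma adjusted p 0.00586) and probe 17151 did not (0.792). Without mouse 2, none of the 5 passed, and 197 of 18828 probes did (1.05%). On kidney arrays 73.9% of 14850 probes passed, and of 3 testable probes only Sec14l2 did (limma adjusted p 6.24e-05), against 0.0521 for Csf2ra and 0.0638 for Mug-ps1. Without mouse 3 this turned round: Sec14l2 did not pass (limma adjusted p 0.114), while Csf2ra (0.0208), Mug-ps1 (0.0306) and Psen2 probes 15 (0.0483) and 17151 (0.000825) did, as did 76.5% of 18099 probes. The shares over all probes are so high that passing says little about these genes. They also include the arrays of mouse 2, whose medians depart from the stated scaling.

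The probes followed the shift of mouse 2 to different degrees. Arrays of mouse 2 were those off the stated median ratio of 1, so scaling and animal cannot be told apart in this shift. Over all probes, mouse 2 stood below the mean of mice 1 and 3 by a median of -1.24 on kidney arrays and -1.22 on liver arrays. Psen2 probe 17151 moved with it, at -1.54 and -1.28. Mug-ps1 moved by -0.63 and -0.58, against medians of -0.44 and -0.24 over the 71 probes with an estimate under -5, Mug-ps1 among them. Psen2 probe 15 went the other way, at 0.60 and 0.18, with mouse 1 alone as its kidney comparison. Csf2ra was lower in mouse 2 on kidney arrays (-1.05) and higher on liver arrays (0.75), where its mouse averages of -7.68, -6.67 and -7.15 kept mouse 2 nearest to 0. Sec14l2 was at 1.97 on kidney arrays, a value set by mouse 3, and at 0.19 on liver arrays. Whether the kidney and liver shifts of Csf2ra differ was not tested.

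**Figure D4:**
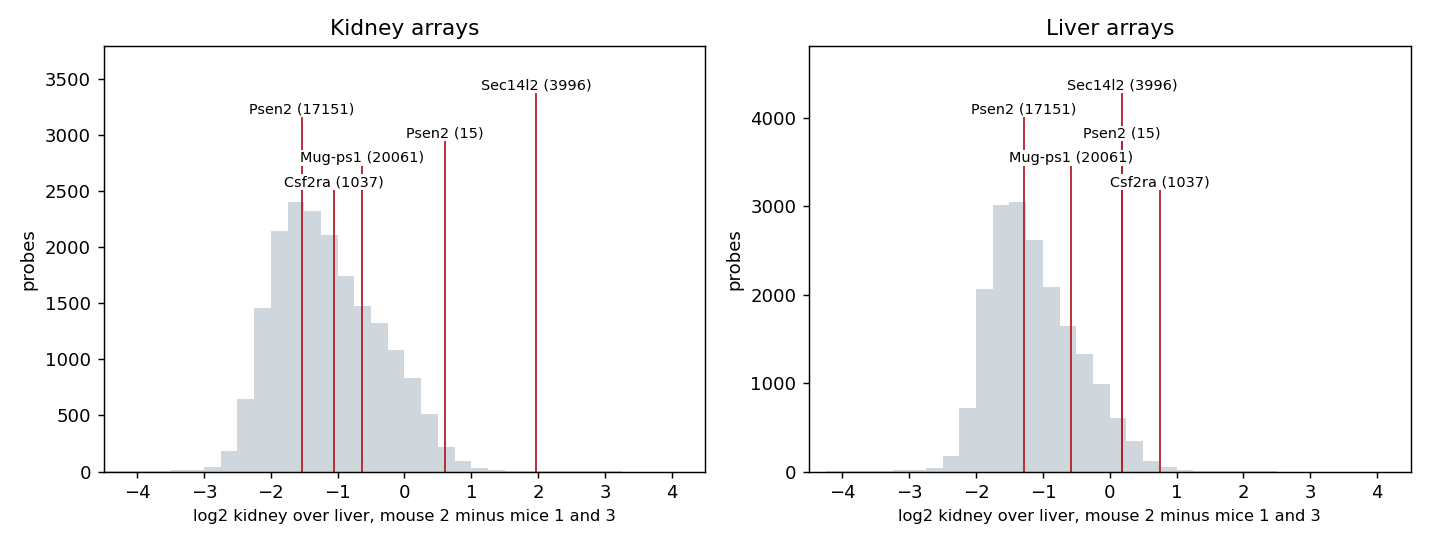
Number of probes (vertical axis) by the log2 kidney over liver value of mouse 2 minus the mean of mice 1 and 3 (horizontal axis), on kidney arrays at left and liver arrays at right. Vertical lines mark the 5 probes of the 4 genes; Psen2 probe 17151 lies near the median of all probes (-1.24 and -1.22), while Csf2ra lies at -1.05 on kidney arrays and at 0.75 on liver arrays.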

How the data were processed

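Per the labels' protocols, each channel took 20 µg of total RNA, coupled indirectly to Cy3 or Cy5, slides were scanned with GenePix 4000A, and GenePix Pro 3.0 gave mean intensities less background, scaled to a median ratio of 1. The deposited values of mouse 2 depart from that scaling, with array medians of log2 kidney over liver between -1.49 and -1.19. On all other arrays the median was at most 0.00267 in size. The deposited values are log2 ratios of the 2 channels. The dye of each sample is not given in the sources used here. Base 2 fitted 131 of 150 gaps between common values (log2 of a quotient of integers no larger than 10, tolerance 1e-04); natural logarithms fitted 0 and log10 fitted 8. Dim spots could not be judged from intensities, which were not used here.

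Values were multiplied by -1 on kidney arrays and kept on liver arrays. Averages per mouse and organ (6) were fitted with limma 3.58.1 in R 4.3.3 with a mean and a term for the kind of array, where 2 or more mice per organ had a value. Mice were compared by moderated F on single arrays. Adjusted p-values are Benjamini-Hochberg over all probes tested, two-sided, at 0.05. The fits were tested on simulated data. By the labels, mouse numbers mark the same animals on both kinds of array. The deviations of mice 1, 2 and 3 in kidney over liver correlated between kinds at 0.591, 0.795 and 0.585 over 14688 probes. These correlations include the shift of mouse 2 and are no evidence of which animal an array holds. The fit took the mice as independent between kinds of array. Its SE therefore tend to be too small for kidney over liver and too large for the difference between kinds. A fit with the mouse as block is in the closing section. On kidney over liver that block takes differences between mice out of the SE, so its p-values do not measure spread between animals.

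Gene names came from the platform annotation (11723 probes with 1 symbol, 806 with several, 7890 with none), updated through RefSeq (11590 matched). Members, lists, motifs and alternatives were chosen with earlier results of these data known. Named were all member probes, called genes of 4 related lists (at most 4 per direction) with close family members, the 5 probes most like each member and the 3 nearest measured genes on each side; other list members are given as examples.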

Additional observations from a re-analysis of the deposited data

Results flagged for a closer look

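Sec14l2 on the only kidney array of mouse 3 stood at a log2 kidney over liver of -9.14, while the next of the 7 kidney arrays was at -4.99. The gap was 0.817 of the whole range, above Dixon's 95% critical value of 0.568 for 7 values. It was the only far value among 10 groups of arrays tested. Chance flags about 1 in 20 groups only where values are independent, which repeat arrays are not. The 7 arrays are repeats of 3 mice and the far value is the single array of mouse 3, so the comparison sets 1 animal mostly against technical repeats, on values that also chose the gene. The cause was not tested, and no repeat array of this RNA was analysed here.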

How the results depend on the processing

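The 4 genes kept their direction in every alternative that gave a value. Csf2ra ranged from -7.32 to -6.79, Mug-ps1 from -7.81 to -7.21, Psen2 probe 15 from -3.55 to -2.74, Psen2 probe 17151 from -1.13 to -0.36 and Sec14l2 from -6.12 to -4.60. Centring moved Mug-ps1 (-7.21) and Psen2 probe 15 (-2.74) by more than the SD of their averages. Counts over all probes moved far more. In place of 2358, kidney over liver gave 5445 with arrays centred, 13609 after quantile normalization, 4141 on single arrays with a random block, 774 on kidney arrays alone, 1543 on liver arrays alone, and 700 to 4873 with a mouse left out. A replicate block by mouse gave 15425 on kidney over liver and 966 on sample over pool. For the difference between kinds of array, the replicate block gave 18, quantile normalization 11 and trend and robust variances 2, in place of 0, and none of the 5 probes passed in any alternative. Between mice on kidney arrays, 7115 probes passed when centred, 4919 after quantile normalization and 3 to 13847 with a mouse left out, in place of 10967. On liver arrays these were 7133, 5573 and 197 to 15761, and 10348 with complete values, in place of 15870; fewer probes enter the last. Calls between mice were counted over pairs of member probe and alternative. On kidney arrays the call was gained in 5 pairs, lost in 1 and unchanged in 15. On liver arrays it was gained in 1 pair, lost in 14 and unchanged in 18. App, Hc, Pzp, Sec14l4, Ttpa and Tyrobp passed in all 14 alternatives, whereas Clec4f failed in 2, C1qa, Slc6a13 and 1700063H04Rik in 5 each and Scarb1 in 6, and no named gene reversed a call. The cause was not tested. Without raw intensities, background correction could not be varied, and 2 mice per organ or a single array carry some Psen2 and Sec14l2 values. The alternative without the kidney array of mouse 3 was chosen after seeing the data.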
